A study of Homo sapiens with 16 samples.

Results

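The 39 genes described here encode the enzymes of DNA replication, the proteins that load them at origins, the enzymes that supply nucleotides, and the cyclins, kinases and transcription factor of the step from G1 into S phase. They were listed by name, and a gene was kept where at least 1 probe set with a single gene symbol measured it. All 39 of 39 were measured, by 61 probe sets, among 11963 genes tested. The list did not use a measured value of any array, but it was drawn up with earlier results of these data known.

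Expression was read in 4 human cell lines labelled as breast cancer, on 16 Affymetrix U133 2.0 arrays that make 8 groups of 2. LM24175, a metastatic derivative of MDA-MB-231, and MDA-MB-231 itself (MDAMB231 in the labels) are called invasive, and each was stably infected with a construct that expresses RECK constitutively or with the empty vector. Hs606T and Hs343T are called poorly invasive, and each was transfected with an siRNA against RECK (siRECK) or a scrambled siRNA (siSCR). RECK is a membrane-anchored inhibitor of matrix metalloproteinases. No times, doses or clone numbers are given with the groups. The invasive lines were never given an siRNA and the poorly invasive lines never a vector, so agent and kind of line change together in any comparison across them.

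Replication begins when the origin recognition complex, with CDC6 and CDT1, loads the ring of MCM2 to MCM7 onto DNA in G1. Cyclin D with CDK4 and cyclin E with CDK2 phosphorylate the retinoblastoma protein, which frees E2F transcription factors, and these in turn drive genes for cyclin E, the MCM proteins, polymerases and nucleotide enzymes. CDC45 and the GINS complex then switch the MCM ring on as a helicase, polymerase alpha with primase starts each strand, and PCNA, placed by replication factor C, holds the copying polymerases on DNA.

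Promoter sequences of members are shown because E2F factors are known to bind a short word, TTT, then C or G at each of 2 places, then CGC, in genes of this kind. The 4 words searched were TTTCCCGC, TTTCGCGC, TTTGCCGC and TTTGGCGC, on both strands, in RefSeq windows of build GRCh38.p14 that run from 250 bases before to 50 after a gene's start. Windows were found for 34 of the 39 members, 45 windows in all, and some members have several. The 5 windows below belong to genes whose values are given in full: MCM6 at chr2:135876394-135876693 (minus strand), GINS2 at chr16:85688905-85689204 (minus strand), PCNA at chr20:5126573-5126872 (minus strand), POLA2 at chr11:65261712-65262011 (plus strand) and CDK4 at chr12:57752261-57752560 (minus strand). Each is written 5′ to 3′ on the gene's own strand, with E2F words in capitals.
MCM6: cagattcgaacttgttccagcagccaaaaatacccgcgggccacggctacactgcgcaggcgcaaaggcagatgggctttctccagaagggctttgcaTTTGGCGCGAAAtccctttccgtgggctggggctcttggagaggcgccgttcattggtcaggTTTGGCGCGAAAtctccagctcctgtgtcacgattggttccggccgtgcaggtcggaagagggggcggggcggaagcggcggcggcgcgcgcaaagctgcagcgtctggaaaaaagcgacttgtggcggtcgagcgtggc
GINS2: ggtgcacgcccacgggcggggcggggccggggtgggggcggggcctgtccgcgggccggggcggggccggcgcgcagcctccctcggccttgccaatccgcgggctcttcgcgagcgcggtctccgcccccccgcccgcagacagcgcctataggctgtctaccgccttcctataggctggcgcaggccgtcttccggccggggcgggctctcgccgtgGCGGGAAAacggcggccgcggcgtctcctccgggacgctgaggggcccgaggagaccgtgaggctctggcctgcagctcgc
PCNA: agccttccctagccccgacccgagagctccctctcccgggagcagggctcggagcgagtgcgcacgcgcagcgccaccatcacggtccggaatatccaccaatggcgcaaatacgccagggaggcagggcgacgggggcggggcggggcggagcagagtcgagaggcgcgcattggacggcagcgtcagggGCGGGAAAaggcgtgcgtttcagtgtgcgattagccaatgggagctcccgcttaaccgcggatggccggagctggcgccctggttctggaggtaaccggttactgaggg
POLA2: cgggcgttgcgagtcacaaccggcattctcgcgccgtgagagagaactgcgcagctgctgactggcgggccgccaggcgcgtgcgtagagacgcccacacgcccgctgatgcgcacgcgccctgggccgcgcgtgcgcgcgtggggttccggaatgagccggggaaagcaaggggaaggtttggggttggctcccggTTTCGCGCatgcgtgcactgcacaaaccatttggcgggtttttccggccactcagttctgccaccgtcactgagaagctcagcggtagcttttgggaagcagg
CDK4: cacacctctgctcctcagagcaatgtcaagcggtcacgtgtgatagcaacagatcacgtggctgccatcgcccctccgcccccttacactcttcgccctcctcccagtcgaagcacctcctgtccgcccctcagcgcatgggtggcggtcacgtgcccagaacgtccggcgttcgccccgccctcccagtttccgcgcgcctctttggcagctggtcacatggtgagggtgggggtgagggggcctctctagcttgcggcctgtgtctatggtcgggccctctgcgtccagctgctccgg
In MCM6 each run of capitals holds a pair of words, TTTGGCGC on the gene's strand and TTTCGCGC on the other strand, which overlap by 4 letters. In GINS2 and PCNA the capitals are TTTCCCGC read from the other strand, beginning 31 and 59 bases before the start. POLA2 has TTTCGCGC 53 bases before its start, and the CDK4 window holds none of the 4 words.

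An E2F word was found in 19 of the 45 member windows (42.2%), against 4.38% of the 14058 windows of all genes tested and 3.31% of all 35116 windows. Counted by gene, 19 of 34 members (55.9%) had one, against 6.08% of 9563 genes tested. Of the 27 words in member windows, 21 lay within 100 bases of the start. The median GC content was 66.0% in member windows and 63.3% in those of all genes tested. The CHR element TTTGAA, known from mitotic genes, was in 4.44% of member windows, against 11.8% of windows of genes tested and 62.5% of 32 windows of G2 and mitosis genes. The CCAAT box was in 55.6% of member windows, against 35.1% of windows of genes tested. A match describes the letters of a window and says nothing of binding in these cells.

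**Figure D1:**
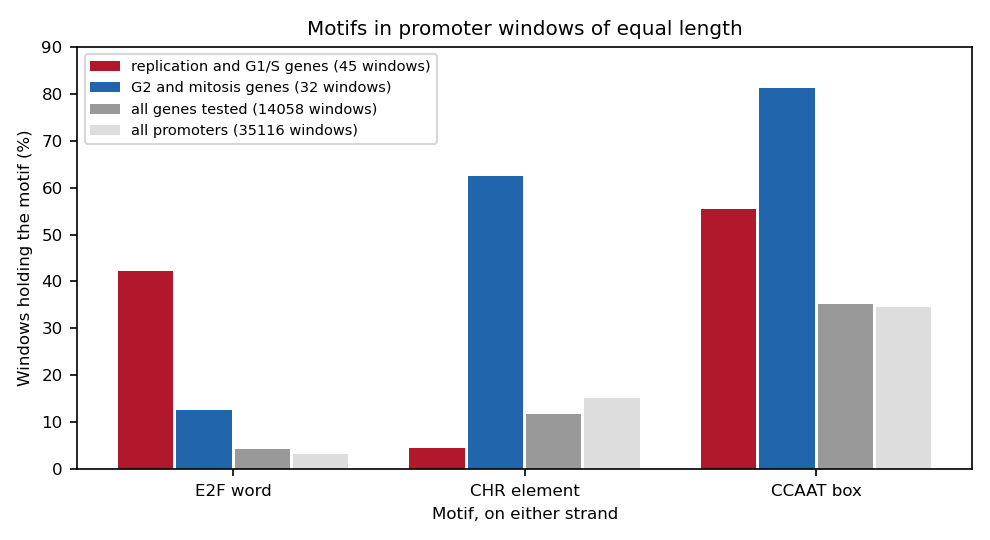
Share of promoter windows (y axis, percent) that hold an E2F word, the CHR element or the CCAAT box on either strand, for the members, G2 and mitosis genes, all genes tested and all promoters. The E2F word is in 42.2% of member windows and 12.5% of G2 and mitosis windows, and the CHR element in 4.44% and 62.5%.

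The arrays had medians from 6.42 to 6.57, and those of a group correlated at 0.994 to 0.998. All values are log2 levels as deposited, differences are log2, and an adjusted p under 0.05 in limma's fit across all genes counts as passing. The labels do not say whether the 2 arrays of a group stand for separate cultures, and a p-value then reflects the spread of these arrays alone, possibly a technical one. Probe sets differ in how brightly they read, so levels are compared only within a gene. RECK went against the siRNA labels: it read 11.17 and 11.02 on the Hs606T arrays labelled siRECK, against 8.74 and 8.65 on those labelled siSCR, and in Hs343T it read 11.31 and 11.24 on arrays labelled siRECK, against 6.07 and 5.52 on those labelled siSCR. These are differences of 2.40 (adjusted p = 6.65e-06) and 5.48 (adjusted p = 1.28e-10), so directions below follow the labels and run against RECK as measured, and siRECK and siSCR arrays means arrays so labelled. With the construct RECK differed by -0.42 in LM24175 (adjusted p = 0.154) and 0.03 in MDA-MB-231 (adjusted p = 0.962). RECK is given here only from the probe set that stands for the gene, the brightest on average. Whether that probe set reads RECK alone, and whether the siRNA labels were swapped, was not tested. The 15 fibroblast markers averaged between 11.52 and 12.51 on the arrays of Hs606T and Hs343T, and between 5.53 and 6.94 on those of LM24175 and MDA-MB-231. The 15 epithelial markers averaged between 5.83 and 6.13 in Hs606T and Hs343T and between 7.0 and 7.24 in the invasive lines. Of these, EPCAM had group means from 4.10 to 4.67 in Hs606T and Hs343T and from 8.15 to 8.85 in the invasive lines, and CDH1 from 3.84 to 4.14 in all 4 lines, near or under 4.56, the lower quartile of all values. The labels call all 4 lines breast cancer cells. Of other epithelial markers, the keratins KRT18 and KRT19 had group means from 8.34 to 10.18 and from 8.92 to 10.96 in Hs606T and Hs343T. KRT19 differed between the invasive and poorly invasive controls by -0.18 without passing (adjusted p = 0.0718). KRT18 was 3.51 higher in the invasive controls (adjusted p = 1.09e-13), and KRT8, GATA3 and KRT7 were 3.44, 3.36 and 3.16 higher. In this comparison 7 of the 15 epithelial markers passed as higher and 4 as lower. The 13 leukocyte markers measured averaged between 4.76 and 5.05 on every array.

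The mean of the 39 genes was high on the arrays of LM24175 and MDA-MB-231, which interleaved, lower in Hs343T and lowest in Hs606T. It was 10.13 and 9.97 on the LM24175 arrays with the RECK construct and 10.16 and 10.17 with the empty vector. In MDA-MB-231 it was 9.86 and 9.85 with the construct and 10.15 and 9.90 with the empty vector. In Hs606T it was 7.18 and 7.16 on arrays labelled siRECK and 7.18 and 7.19 on those labelled siSCR. In Hs343T it was 7.69 and 7.68 on arrays labelled siRECK and 8.33 and 8.27 on those labelled siSCR. Of the 4 lines, Hs343T had the widest gap between its groups. In MDA-MB-231 the empty vector arrays lay further apart than the closest arrays of the 2 groups, and in Hs606T the groups lay side by side. The mean of all 11963 genes stayed between 7.31 and 7.37.

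**Figure D2:**
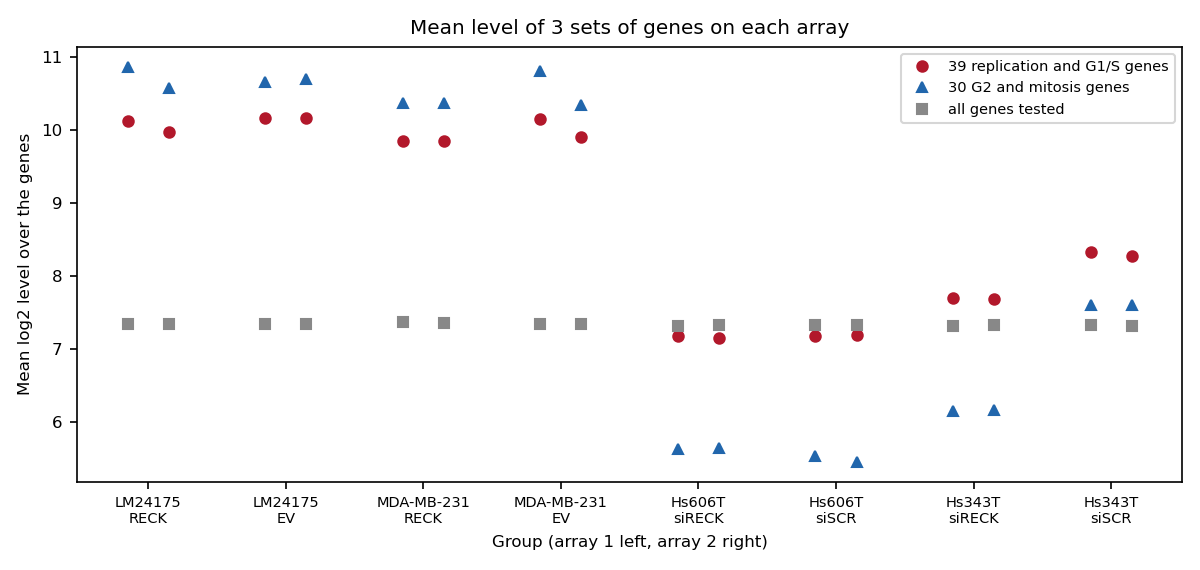
Mean log2 level (y axis) of the 39 members, of 30 G2 and mitosis genes and of all genes on each of the 16 arrays (x axis, by group). The member mean is 7.69 and 7.68 in Hs343T labelled siRECK, against 8.33 and 8.27 labelled siSCR, while the mean of all genes is level.

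In Hs343T most replication genes were lower with the siRECK label than with the siSCR label. Of the 39 genes, 24 fell and 1, POLA2, rose, where 17.4% of all genes tested fell and 12% rose. The median difference of the members was -0.56, against -0.06 for all genes. With all arrays the falls reached every functional class, but 14 members, among them E2F1, CDC25A, CDK2 and both other cyclins beside CCNE1, did not pass. On arrays of whole cultures, fewer cells in S phase and less transcript per cell cannot be told apart.

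All 6 subunits of the MCM ring fell. MCM6 read 9.11 and 9.23 on the siRECK arrays, against 10.22 and 10.11 on the siSCR arrays, a difference of -0.99 (SE 0.10; adjusted p = 1.59e-05). MCM7 read 7.26 and 7.23 on the siRECK arrays, against 8.22 and 8.21 on the siSCR arrays, a difference of -0.97 (adjusted p = 8.71e-07). MCM2 read 7.11 and 7.27 on the siRECK arrays, against 7.74 and 7.74 on the siSCR arrays, a difference of -0.55 (adjusted p = 0.000707). In all 3 the siRECK arrays lay below both siSCR arrays. MCM5 fell by 0.55, MCM4 by 0.56 and MCM3 by 0.51, so MCM6 and MCM7 had the larger falls of the ring. MCM4 has 4 probe sets, which tested alone differed by -0.63, -0.56, -0.35 and 0.22. The first and second of these passed, and the last lies near the lower quartile of all values at a mean level of 4.95.

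Of the origin-licensing genes, CDC6, which recruits the MCM ring, read 6.14 and 6.05 on the siRECK arrays, against 7.14 and 7.10 on the siSCR arrays (difference -1.02, SE 0.28; adjusted p = 0.0145). ORC1, the largest subunit of the origin recognition complex, read 4.26 and 4.51 on the siRECK arrays, against 5.16 and 5.07 on the siSCR arrays (-0.73; adjusted p = 0.0122), with both siRECK arrays under the lower quartile of all values. ORC6 fell by 0.52 (adjusted p = 0.0219). CDC6 and ORC6 lost the call whichever of the 4 Hs343T arrays was left out. ORC1 lost it without the first siSCR or the first siRECK array, and no licensing gene then passed. CCNE1 lost it without either siSCR array or without the second siRECK array, and 21 to 24 members passed in these 4 fits. CDT1, the partner of CDC6 in loading, differed by -0.17 (adjusted p = 0.656).

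Among the genes that activate the helicase, GINS2 and MCM10 fell while GINS1 did not pass. GINS2, a subunit of the GINS complex, read 6.78 and 6.84 on the siRECK arrays, against 8.37 and 8.30 on the siSCR arrays, a 2.87-fold lower level (log2 difference -1.52, 95% interval -1.82 to -1.22; adjusted p = 4e-06). MCM10, which joins the helicase to polymerase alpha, read 4.49 and 4.13 on the siRECK arrays, against 5.76 and 5.87 on the siSCR arrays (-1.51; adjusted p = 0.000611), its siRECK arrays under the lower quartile of all values. GINS1, another subunit of the same complex as GINS2, read 8.14 and 8.33 on the siRECK arrays, against 8.35 and 8.15 on the siSCR arrays (-0.01; adjusted p = 0.972), and its groups overlapped. CDC45 differed by -0.49 and missed the threshold at adjusted p = 0.051.

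The clamp and 3 of 4 measured subunits of its loader fell. PCNA, the sliding clamp, read 9.87 and 9.99 on the siRECK arrays, against 10.93 and 10.97 on the siSCR arrays, a 2.03-fold lower level (-1.02, 95% interval -1.22 to -0.82; adjusted p = 3.37e-06). RFC4 read 6.76 and 6.71 on the siRECK arrays, against 8.13 and 8.03 on the siSCR arrays (-1.35; adjusted p = 1.79e-07). RFC3 read 6.41 and 6.35 on the siRECK arrays, against 7.74 and 7.56 on the siSCR arrays (-1.27; adjusted p = 1.21e-05). In each of these the siRECK arrays lay below both siSCR arrays by more than the arrays of a group lay apart. RFC5 fell by 0.61 (adjusted p = 0.000542), and all 3 of its probe sets passed as lower. RFC2 differed by 0.28 (adjusted p = 0.214) and its probe sets differed in sign.

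POLA2, the regulatory subunit of polymerase alpha, was the member that went up. It read 8.86 and 8.73 on the siRECK arrays, against 7.97 and 7.96 on the siSCR arrays, a 1.78-fold higher level on the siRECK arrays (0.83, 95% interval 0.50 to 1.16; adjusted p = 0.00112). Its partners in the same complex fell: POLA1, the catalytic subunit, by 0.73 (adjusted p = 0.00073) and PRIM1, the primase, by 0.81 (adjusted p = 0.00569). A single probe set measures POLA2, so no further one could be set beside it. POLE2, the second subunit of polymerase epsilon, fell by 0.78, while its catalytic subunit POLE (-0.33; adjusted p = 0.101) and POLD1 of polymerase delta (-0.43; adjusted p = 0.175) did not pass. FEN1, the nuclease that trims Okazaki fragments, fell by 0.93, and LIG1, the ligase that joins them, differed by -0.22 (adjusted p = 0.431).

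Of the nucleotide enzymes, RRM2, the S-phase subunit of ribonucleotide reductase, read 8.84 and 8.90 on the siRECK arrays, against 10.24 and 10.10 on the siSCR arrays (-1.30; adjusted p = 0.000141). TYMS, thymidylate synthase, read 9.58 and 9.38 on the siRECK arrays, against 10.35 and 10.19 on the siSCR arrays (-0.79; adjusted p = 0.000211). RRM1, the partner of RRM2, fell by 0.79. The second TYMS probe set, at a mean level of 3.81 and so under the lower quartile of all values, differed by 0.04 (adjusted p = 0.868, every probe set tested alone). TK1, the salvage kinase for thymidine, and DUT, which removes dUTP, differed by -0.26 and -0.13 and did not pass.

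Among the G1/S regulators, CDK4 had the largest fall of any member. It read 8.92 and 9.05 on the siRECK arrays, against 10.51 and 10.52 on the siSCR arrays, 2.88-fold lower (-1.53, 95% interval -1.70 to -1.35; adjusted p = 2.94e-08). CCND1, the cyclin D1 that partners CDK4, read 12.79 and 12.85 on the siRECK arrays, against 12.97 and 12.98 on the siSCR arrays (-0.16; adjusted p = 0.226), and its probe sets differed in sign. The kinase fell, and this cyclin did not pass. CCNE1, cyclin E1, read 7.80 and 7.51 on the siRECK arrays, against 8.26 and 8.26 on the siSCR arrays (-0.60; adjusted p = 0.0194). CCNE2, cyclin E2, read 6.35 and 6.73 on the siRECK arrays, against 7.21 and 6.87 on the siSCR arrays (-0.50; adjusted p = 0.0628). E2F1 read 7.65 and 7.58 on the siRECK arrays, against 8.03 and 7.83 on the siSCR arrays (-0.32; adjusted p = 0.0651). The arrays of these last did not overlap, yet only CCNE1 passed. CDC25A, the phosphatase that activates CDK2, read 6.87 and 6.93 on the siRECK arrays, against 7.01 and 6.76 on the siSCR arrays (0.01; adjusted p = 0.976), and CDK2 differed by -0.04 (adjusted p = 0.799).

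**Figure D3:**
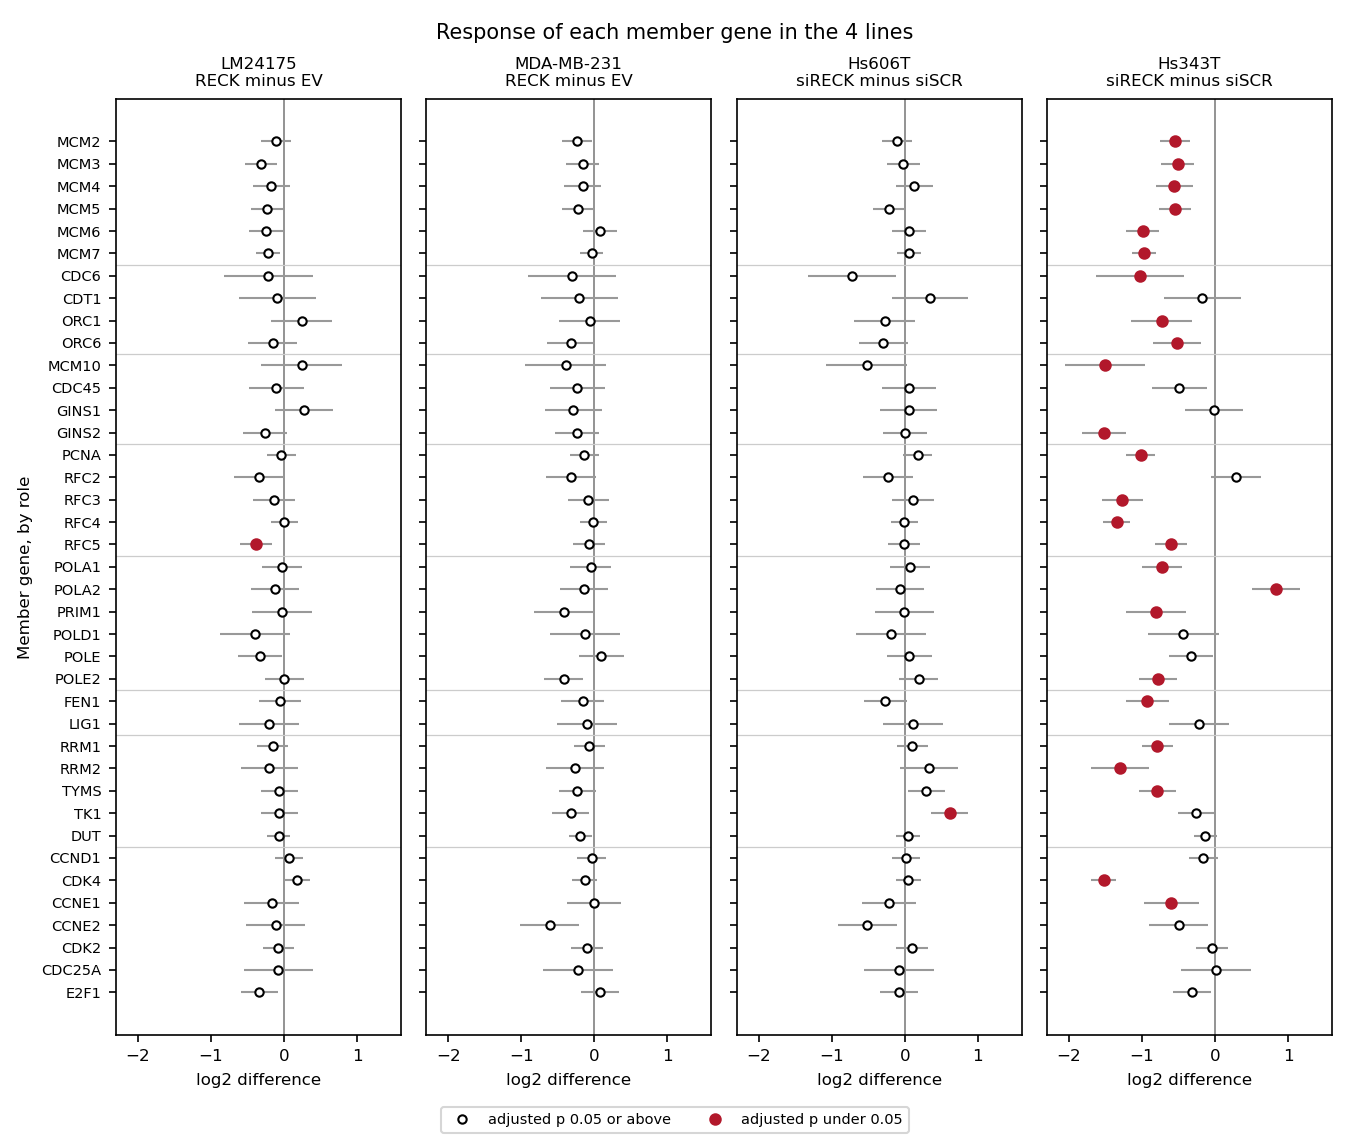
log2 difference (x axis) of each member gene (y axis, by role) in LM24175, MDA-MB-231, Hs606T and Hs343T, construct minus empty vector or siRECK minus siSCR as labelled. Points are estimates, bars 95% intervals, and filled points passed: 0 in MDA-MB-231, 1 each in LM24175 and Hs606T, and 25 in Hs343T.

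An E2F word was found both among the members that fell in Hs343T and among the others. It was in 11 of 26 windows (42.3%) of members that fell and in 8 of 19 windows (42.1%) of the rest. Counted by gene, it was in 11 of 22 genes that fell and in 8 of 12 of the rest, and neither difference was tested. In the windows printed above, MCM6, GINS2 and PCNA carry a word and fell, POLA2 carries one and rose, and CDK4 carries none and fell. PCNA has another window, at chr20:5119909-5120208, which is not printed and holds none of the words.

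Genes of replication and of the G1/S step outside the 39 gave a mixed picture in Hs343T. Of 37 other replication genes measured, 15 fell and 3 rose, with a median of -0.27. TIPIN, a fork protection factor, rose by 1.66 (adjusted p = 0.000117), while WDHD1, which couples helicase and polymerase alpha, DTYMK, thymidylate kinase, and ASF1B, a histone chaperone, fell by 1.09, 1.04 and 0.91. Of 31 other G1/S regulators, 5 rose and 5 fell, with a median of -0.10. The CDK inhibitor CDKN2D and cyclin D3 (CCND3) rose by 0.97 and 0.92, and the cell-cycle transcription factor FOXM1 and cyclin A2 (CCNA2) fell by 0.82 and 0.68. CDKN2A, which encodes the CDK4 inhibitor p16, was 0.57 higher (adjusted p = 0.00539). CDKN1A, which encodes p21, differed by -0.31 (adjusted p = 0.42), and of 15 p53 targets 7 fell and 2 rose.

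Other gene groups were read beside the members in Hs343T. Of 30 G2 and mitosis genes, 25 fell and none rose, and their median of -1.56 was lower than the -0.56 of the members. All 19 interferon-stimulated genes measured rose, with a median of 6.73, and their mean was 12.49 and 12.51 on the siRECK arrays, against 6.16 and 6.08 on the siSCR arrays. The 3′ minus 5′ signal of GAPDH, a measure of RNA integrity, was 0.43 and 0.48 on the siRECK arrays and 0.36 and 0.39 on the siSCR arrays. Of the 15 fibroblast markers 3 fell, and of the 13 leukocyte markers 1 fell, where 17.4% of all genes tested fell. Their medians were -0.06 and -0.07, against -0.06 for all genes. Of the 15 epithelial markers the basal keratin KRT14 rose by 2.30 (adjusted p = 2.7e-09), while KRT18, KRT19 and KRT8 fell by 1.08, 0.92 and 0.64. The part of any of these in the members' falls was not tested.

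In Hs606T 1 member passed between arrays labelled siRECK and siSCR. TK1 read 6.71 and 6.83 on the siRECK arrays, against 6.09 and 6.23 on the siSCR arrays, a rise of 0.61 (SE 0.11; adjusted p = 0.0245), and 0 members fell, where 0.811% of all genes tested rose and 0.385% fell. 4 members passed before adjustment. TK1 lost the call when any 1 Hs606T array was left out. The member median was 0.02, against -0.00 for all genes.

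No gene that led in Hs343T passed in Hs606T, where CDC6 and MCM10 differed by -0.72 and -0.52. PCNA read 10.34 and 10.10 on the siRECK arrays, against 10.02 and 10.06 on the siSCR arrays (0.18), and CDK4 read 11.12 and 11.13 on the siRECK arrays, against 11.07 and 11.08 on the siSCR arrays (0.05). Their siRECK arrays were the higher ones, by small margins, and neither passed (adjusted p = 0.49 and 0.869). MCM6 read 9.49 and 9.56 on the siRECK arrays, against 9.53 and 9.40 on the siSCR arrays and MCM2 6.84 and 6.90 on the siRECK arrays, against 6.97 and 6.97 on the siSCR arrays. RRM2 read 7.35 and 7.37 on the siRECK arrays, against 6.91 and 7.14 on the siSCR arrays (0.33; adjusted p = 0.524), and TYMS 9.66 and 9.70 on the siRECK arrays, against 9.39 and 9.38 on the siSCR arrays (0.30; adjusted p = 0.335). Both nucleotide enzymes were thus higher on the siRECK arrays without passing.

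The licensing genes and cyclins of Hs606T were low and uneven. CDC6 read 4.55 and 5.18 on the siRECK arrays, against 5.17 and 6.01 on the siSCR arrays (-0.72; adjusted p = 0.324), and its siSCR arrays differed by more than the group means did. ORC1 read 3.86 and 3.61 on the siRECK arrays, against 3.94 and 4.07 on the siSCR arrays, all under the lower quartile of values, where a fall could not be told from background. CCNE2 read 4.48 and 4.32 on the siRECK arrays, against 5.02 and 4.80 on the siSCR arrays (-0.51; adjusted p = 0.283), and CCNE1 7.65 and 7.73 on the siRECK arrays, against 7.86 and 7.95 on the siSCR arrays. These groups did not overlap for ORC1, CCNE1 and CCNE2, the siRECK arrays being lower, and none passed. CCND1 read 12.20 and 12.15 on the siRECK arrays, against 12.18 and 12.14 on the siSCR arrays, E2F1 7.32 and 7.32 on the siRECK arrays, against 7.32 and 7.48 on the siSCR arrays and CDC25A 5.83 and 6.04 on the siRECK arrays, against 5.996 and 6.03 on the siSCR arrays, all with overlapping groups. Interferon-stimulated genes also rose in Hs606T, 16 of 19 with a median of 1.57, and of the G2 and mitosis genes 1 rose and 1 fell.

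The difference between the Hs606T and Hs343T responses was itself tested. Of the 39 genes, 18 had a higher response in Hs606T than in Hs343T and 1, POLA2, a lower one, where 11.6% of all genes tested were higher and 8.72% lower. The median of this difference was 0.52, against 0.04 for all genes. MCM2 lost the call in 7 of the 8 fits that left out 1 array, FEN1 in 5 and MCM3 in 4. The difference was 1.63 for RRM2 (adjusted p = 0.00063), 1.57 for CDK4 (adjusted p = 1.19e-06), 1.52 for GINS2 (adjusted p = 0.000143) and 1.38 for RFC3 (adjusted p = 0.000203). RFC4, PCNA, TYMS and MCM6 followed at 1.34, 1.20, 1.09 and 1.05. POLA2 differed by -0.90 (adjusted p = 0.0099), having read 6.21 and 6.07 on the siRECK arrays, against 6.31 and 6.12 on the siSCR arrays in Hs606T. For MCM10 the difference of 0.98 did not pass (adjusted p = 0.0749), with Hs606T at 3.58 and 3.30 on the siRECK arrays, against 3.75 and 4.17 on the siSCR arrays, under the lower quartile of values. None of the origin-licensing genes passed in this comparison, whose medians and calls rest on the same arrays as the separate responses.

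**Figure D4:**
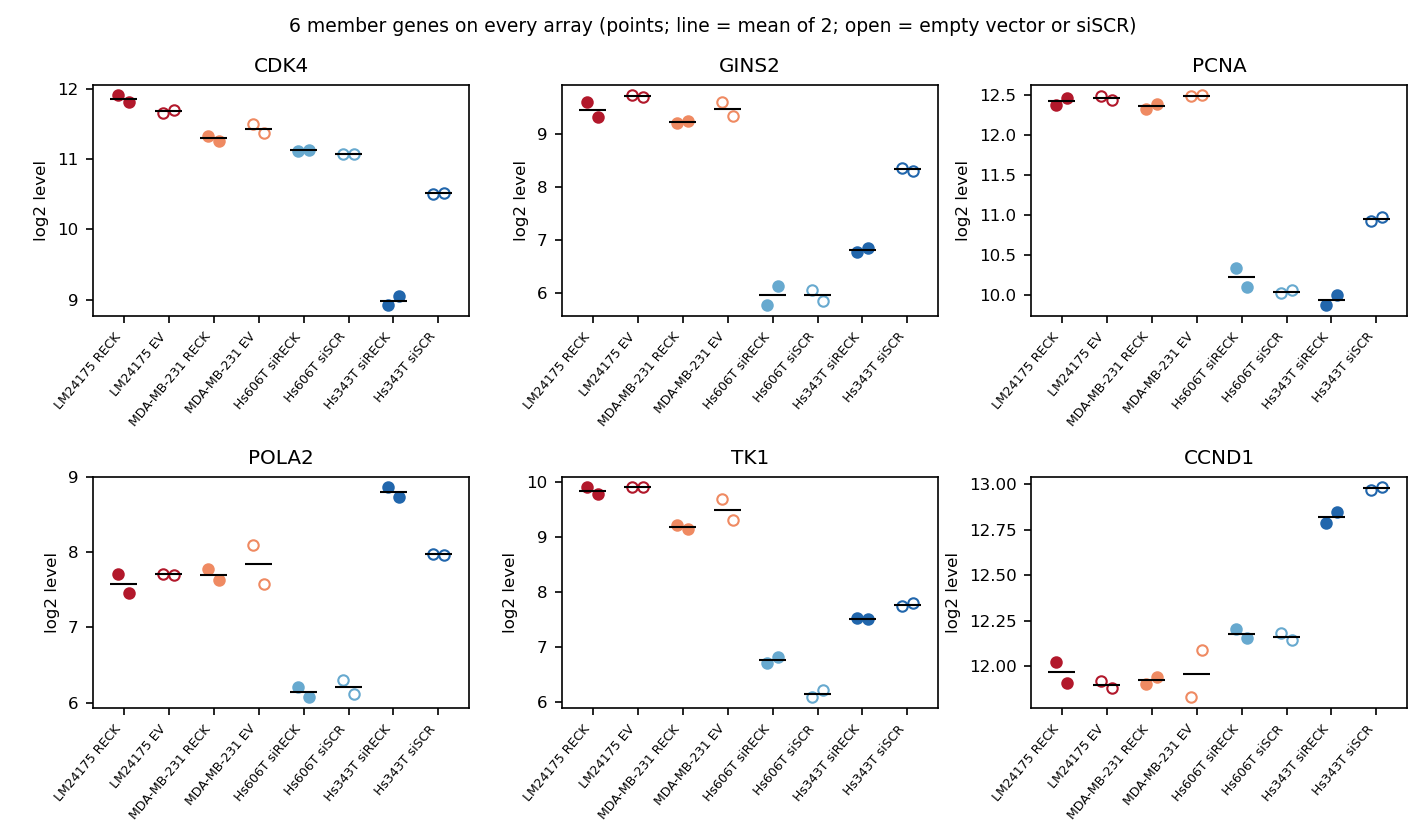
log2 level (y axis) of CDK4, GINS2, PCNA, POLA2, TK1 and CCND1 on each of the 16 arrays (x axis, by group), each panel on its own scale, which does not start at 0. Filled points are arrays with the RECK construct or labelled siRECK, open points empty vector or siSCR, and lines are means of 2 arrays. CDK4 is 8.92 and 9.05 in Hs343T labelled siRECK, against 10.51 and 10.52 labelled siSCR.

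In LM24175 1 member passed between arrays with the RECK construct and with the empty vector. RFC5 read 10.34 and 10.40 with the construct, against 10.81 and 10.70 with the empty vector (-0.39, SE 0.10; adjusted p = 0.0412), both construct arrays being lower. The call was lost when any 1 of the 4 arrays was left out, and the 2 other RFC5 probe sets differed by -0.08 and -0.12 without passing. Of all genes 3.44% rose and 3.27% fell, the member median was -0.11 and 9 members passed before adjustment.

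The other members named by rule did not pass in LM24175. MCM2 read 10.39 and 10.20 with the construct, against 10.40 and 10.40 with the empty vector, and MCM6 10.97 and 11.23 with the construct, against 11.34 and 11.35 with the empty vector. PCNA read 12.38 and 12.47 with the construct, against 12.49 and 12.44 with the empty vector, and CDC6 10.14 and 9.72 with the construct, against 10.12 and 10.17 with the empty vector. ORC1 read 7.16 and 6.53 with the construct, against 6.61 and 6.59 with the empty vector, with 1 construct array above and 1 below the empty vector arrays. RRM2 read 11.82 and 11.45 with the construct, against 11.88 and 11.80 with the empty vector, and TYMS 12.81 and 12.54 with the construct, against 12.75 and 12.72 with the empty vector. CDK4 read 11.91 and 11.81 with the construct, against 11.66 and 11.71 with the empty vector, both construct arrays being higher (0.18; adjusted p = 0.25), while E2F1 read 8.20 and 8.33 with the construct, against 8.66 and 8.55 with the empty vector, both being lower (-0.34; adjusted p = 0.126). CCND1 read 12.03 and 11.91 with the construct, against 11.92 and 11.88 with the empty vector, CCNE1 8.32 and 7.97 with the construct, against 8.32 and 8.30 with the empty vector, CCNE2 10.59 and 10.28 with the construct, against 10.48 and 10.62 with the empty vector and CDC25A 9.16 and 8.52 with the construct, against 8.87 and 8.97 with the empty vector, and in these 4 the groups overlapped.

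In MDA-MB-231 no member passed, where 0.226% of all genes rose and 0.0502% fell in limma's test, and 7 members passed before adjustment. Of the 39 differences 36 were below 0, with a median of -0.16, but this median depended on which empty vector array was kept. On the first empty vector array 31 of 39 members were higher than on the second, by a median of 0.26, while 53.4% of all genes were. Without the first empty vector array the member median was -0.05 and 0 passed. Without the second it was -0.30 and 4 passed as lower: CCNE2, POLE2, RRM2 and TK1. The construct arrays of LM24175 differed likewise, with 31 of 39 members higher on the first by a median of 0.12. Their member means were 10.13 and 9.97, against 10.16 and 10.17 with the empty vector, so the second lay further from those. Without the first construct array the LM24175 median was -0.20, and without the second it was -0.01. With 2 arrays in a group, which of them deviated cannot be told. With the first array of both these groups left out of the fit, RFC5 differed by -0.35 and RFC2 by -0.51 in LM24175. G2 and mitosis genes were also higher on the first array, by medians of 0.48 in MDA-MB-231 with the empty vector and 0.27 in LM24175 with the construct. In the 6 other groups 19 to 25 members were higher on the first array, by medians from -0.01 to 0.05.

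The MDA-MB-231 values show the 2 empty vector arrays by gene. CDC6 read 9.69 and 9.57 with the construct, against 10.23 and 9.62 with the empty vector, and RRM2 12.004 and 11.94 with the construct, against 12.57 and 11.91 with the empty vector. CCNE2, with the largest difference of the 39, read 9.61 and 9.63 with the construct, against 10.48 and 9.98 with the empty vector (-0.61; adjusted p = 0.236). CDC25A read 8.64 and 8.37 with the construct, against 9.05 and 8.41 with the empty vector, and CCNE1 7.84 and 7.81 with the construct, against 8.13 and 7.53 with the empty vector. In these the first empty vector array was the highest of the 4. PCNA read 12.33 and 12.39 with the construct, against 12.49 and 12.50 with the empty vector, MCM6 11.19 and 10.998 with the construct, against 10.96 and 11.07 with the empty vector and CCND1 11.90 and 11.94 with the construct, against 11.83 and 12.09 with the empty vector, and there it was not. MCM2 read 9.98 and 9.98 with the construct, against 10.32 and 10.11 with the empty vector, and ORC1 6.79 and 7.15 with the construct, against 7.17 and 6.90 with the empty vector. TYMS read 12.63 and 12.70 with the construct, against 13.03 and 12.76 with the empty vector, CDK4 11.34 and 11.26 with the construct, against 11.50 and 11.37 with the empty vector and E2F1 8.43 and 8.74 with the construct, against 8.60 and 8.41 with the empty vector. For the difference between the LM24175 and MDA-MB-231 responses 0 members passed in limma's test, where 1.65% of all genes were higher and 1.99% lower, and 6 members passed before adjustment. Without the second empty vector array of MDA-MB-231, GINS1, POLE2 and TK1 passed as higher.

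LM24175 and MDA-MB-231 were also compared with the empty vector alone. In LM24175 7 members were higher and 0 lower, where 9.87% of all genes tested were higher and 10.9% lower, and the median difference was 0.18. POLE read 8.60 and 8.44 in LM24175, against 7.66 and 7.87 in MDA-MB-231 (0.76; adjusted p = 0.00209). CDK2 read 10.26 and 10.24 in LM24175, against 9.75 and 9.76 in MDA-MB-231 (0.49; adjusted p = 0.00379). Both genes stood clear of the spread of their arrays. TK1 read 9.89 and 9.90 in LM24175, against 9.69 and 9.30 in MDA-MB-231, and RRM1 read 12.50 and 12.43 in LM24175, against 12.23 and 11.91 in MDA-MB-231, each 0.40 higher. MCM6, MCM7 and CDK4 were 0.33, 0.29 and 0.25 higher (adjusted p = 0.0442, 0.0139 and 0.042). Leaving out 1 empty vector array of LM24175 left 3 members, and leaving out the first of MDA-MB-231 gave 9. Without the second of MDA-MB-231, 3 members were higher and 2, GINS1 and RRM2, lower, and CDK4, MCM6, RRM1 and TK1 lost the call.

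With siSCR, Hs606T read lower than Hs343T in most of the 39 genes. In Hs606T 32 members were lower and 1, CDK4, higher, where 18.5% of all genes tested were lower and 18.4% higher, and the member median was -1.0, against -0.05. RRM2 read 6.91 and 7.14 in Hs606T, against 10.24 and 10.10 in Hs343T, a difference of -3.14 (SE 0.18; adjusted p = 1.06e-07). GINS2 read 6.06 and 5.84 in Hs606T, against 8.37 and 8.30 in Hs343T (-2.38; adjusted p = 1.13e-07). CCNE2 read 5.02 and 4.80 in Hs606T, against 7.21 and 6.87 in Hs343T (-2.13; adjusted p = 3.11e-06). The arrays of the lines were far apart in all 3. For MCM10, GINS1, POLA2, MCM5 and CDC45 the difference ran from -1.85 to -1.70, with MCM10 under the lower quartile of values in Hs606T. CDK4 read 11.07 and 11.08 in Hs606T, against 10.51 and 10.52 in Hs343T (0.56; adjusted p = 0.000158). RFC2, RFC5, POLD1, LIG1, DUT and CCNE1 did not pass. G2 and mitosis genes were lower in 30 of 30, with a median of -2.42, and of 37 other replication genes 20 were lower and 5 higher.

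Hs343T labelled siRECK did not come down to the level of Hs606T in most members. Of the 39, 29 had their lowest of the 8 group means in Hs606T, 16 labelled siRECK and 13 labelled siSCR, and 8 in Hs343T labelled siRECK: MCM6, PCNA, RFC4, POLA1, LIG1, DUT, CDK4 and CCNE1. CDK4 in Hs343T labelled siRECK read 8.92 and 9.05, while every other array read 10.51 or more.

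The invasive lines read higher than the poorly invasive ones in nearly all members. Between the means of the control groups 36 members were higher and 2 lower in invasive lines, where 34.2% of all genes tested were higher and 38.8% lower, and the member median was 2.40, against -0.08. Line and agent cannot be told apart here. MCM10 read 9.72 and 9.70 in LM24175 and 10.13 and 9.35 in MDA-MB-231, against 3.75 and 4.17 in Hs606T and 5.76 and 5.87 in Hs343T. POLE2 read 10.33 and 10.39 in LM24175 and 10.52 and 10.22 in MDA-MB-231, against 5.41 and 5.14 in Hs606T and 6.88 and 6.75 in Hs343T. PRIM1 read 9.96 and 10.02 in LM24175 and 9.93 and 9.60 in MDA-MB-231, against 5.19 and 5.10 in Hs606T and 6.82 and 6.77 in Hs343T. The differences were 4.84 for MCM10, 4.42 for CCNE2, 4.32 for POLE2, 3.90 for PRIM1 and 3.68 for CDC6 (adjusted p from 5.7e-13 to 4.18e-09), then 3.48 for RFC3, 3.44 for RRM2 and 3.41 for RFC4. The Hs606T arrays of MCM10 lay under the lower quartile of all values, so the size of its difference and its rank are uncertain. In 35 of the 39 genes both invasive control groups lay above both poorly invasive ones. In 35 of 39 Hs606T was the lowest of the 4 control groups.

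CCND1, CCNE1 and, on its brightest probe set, RFC5 were the members not called higher in the invasive lines. POLA2 was called higher, but its Hs343T mean of 7.97 with siSCR lay above those with the empty vector, 7.71 in LM24175 and 7.84 in MDA-MB-231. CCND1 read 11.92 and 11.88 in LM24175 and 11.83 and 12.09 in MDA-MB-231, against 12.18 and 12.14 in Hs606T and 12.97 and 12.98 in Hs343T, a lower level in the invasive lines (log2 difference -0.64; adjusted p = 1.58e-06). CCNE1 differed by -0.01 (adjusted p = 0.941). RFC5 differed by -0.31 on its brightest probe set (adjusted p = 0.00184), while its 2 other probe sets were 3.55 and 3.41 higher, and the mean of all 3 gave 2.22. The direction of RFC5 across lines therefore depends on the probe set, and it was the 1 member of 17 with several probe sets to be called in opposite directions.

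Across the 8 group means, 34 of 39 members correlated with the mean of the 39 at over 0.9, as did 9.76% of all genes. The other 5 were POLA2 at 0.43, CCNE1 at 0.51, CDK4 at 0.58, RFC5 at -0.46 and CCND1 at -0.55. These values describe 8 groups that fall into invasive and poorly invasive lines, and each member is part of the mean. Among genes outside all lists the most alike were FBXO5 (0.998), TACC3 and EXO1, then CHCHD3, F12, KIF18B, CENPM, PBK, DEPDC1 and CENPU (0.996). In the controls other replication genes were also higher in invasive lines, 34 of 37 with 1 lower and a median of 1.61, led by CDC7 at 3.47, GINS4 at 3.38, DNA2 at 3.29 and GMNN at 2.95. Of 31 other G1/S regulators 23 were higher and 5 lower, with E2F8 at 4.84 and RBL1 at 3.86. CDKN2A and CDKN1A were lower by log2 differences of -3.77 and -2.01. CDKN2A read from 4.82 to 5.27 on the invasive control arrays, near the lower quartile of all values, so the size of its difference is uncertain. All 30 G2 and mitosis genes were higher, with a median of 4.35, and all 15 fibroblast markers lower, with a median of -6.65, and their part in the members' differences was not tested.

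**Figure D5:**
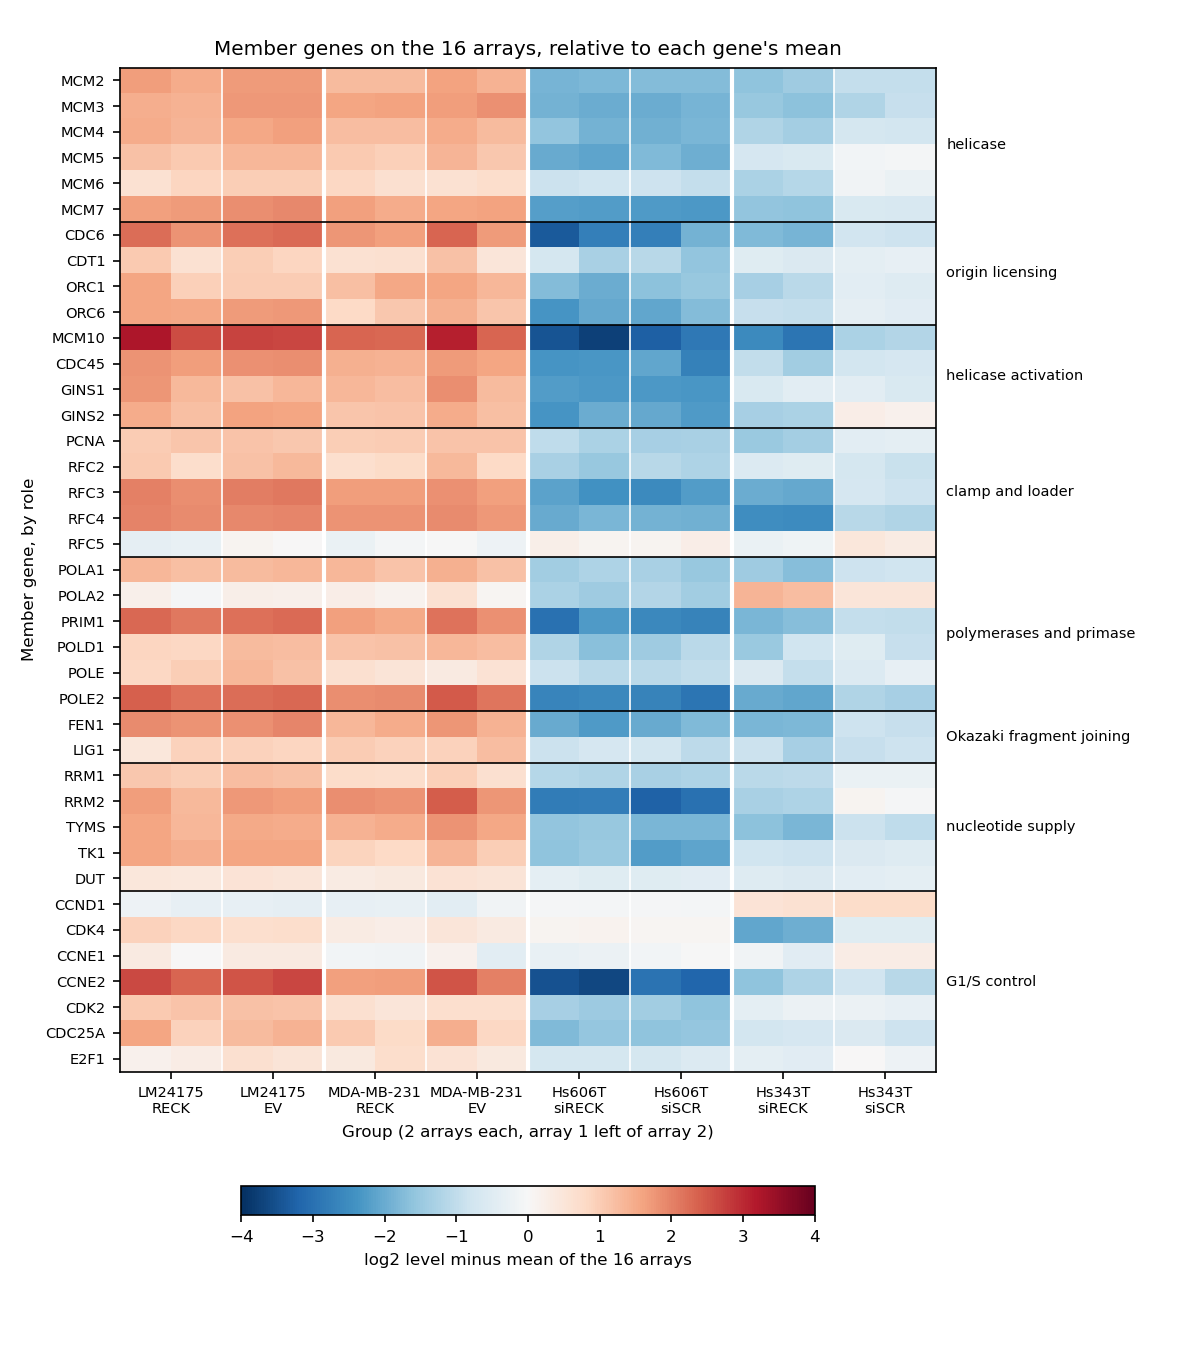
log2 level of each member (rows, by role) on each of the 16 arrays (columns, by group), minus the gene's mean over the arrays. The 8 arrays of the invasive lines at left lie above each gene's mean in most members, and POLA2, CDK4, CCNE1, CCND1 and RFC5 have the lowest correlations with the member mean.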

How the data were processed

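Expression was measured on 16 Affymetrix U133 2.0 arrays, 2 in each of 8 groups taken from the sample titles. The deposited table holds log2 values for 22277 probe sets. The submitters' processing notes name Partek as the program the authors used on their scanner files. How they summarised and scaled probe sets is not given in the sources used here, and the values themselves gave the log base. No detection calls were used here.

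After 62 control probe sets were left out, 19064 probe sets with 1 gene symbol in the platform annotation gave 11963 genes, 1043 had several symbols and 2108 had none. The brightest probe set on average over the arrays stands for each gene. Of the members 17 have several probe sets, and ORC6 and DUT are read from sets open to cross-hybridisation. Gene names were not changed by the current RefSeq table, and E2F words were searched in its promoter windows.

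With limma 3.58.1 (lmFit, contrasts, eBayes; R 4.3.3), 8 group means were fitted to all arrays at the same time. There were 9 comparisons, tests were 2-sided, and the Benjamini-Hochberg adjustment of p ran over all genes. The fit was tested on simulated data. Matplotlib 3.10.9, numpy 2.4.6 and pandas 2.3.3 under Python 3.11.15 made the tables and figures.

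In each comparison the rule names the 8 members with the largest differences among those that passed. PCNA, MCM2, MCM6, ORC1, CDC6, RRM2, TYMS, CCND1, CCNE1, CCNE2, CDK4, E2F1 and CDC25A are given in every line whatever their values, with up to 4 members of each other list, CDKN1A, CDKN2A, RECK and the 10 genes most like the members. POLA2, RFC5 and the genes with several probe sets were singled out after their values were seen. The members, lists and tests were chosen with earlier results of these data known. Listed genes with no probe set of a single symbol, among them MCM8, POLE4, CDKN2C and E2F7, were not analysed here.

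Alternatives changed the scaling (quantile normalization, or arrays centred on their medians). They changed the reading of genes (the mean of their probe sets, each probe set alone, or the lowest 0.25 of genes by level removed). They changed the fit (trend and robust in eBayes, the compared arrays only, or a replicate block) and the call (a 1.5-fold minimum). Arrays were also left out, each alone, or together the first of MDA-MB-231 with the empty vector and of LM24175 with the construct. The labels do not say whether replicate numbers pair the samples. Deviations of same-numbered arrays of a line correlated at -0.05 to 0.01, which cannot show that they were unpaired. The differences between first and second array in LM24175 with the construct and in MDA-MB-231 with the empty vector correlated at 0.49.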

Additional observations from a re-analysis of the deposited data

Results flagged for a closer look

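The response to the arrays' siRNA labels differed between Hs606T and Hs343T for 19 members by a test of the difference itself (Hs606T minus Hs343T, limma, adjusted p under 0.05), and each is given as a log2 value without explanation. In the MCM ring the difference was 0.45 for MCM2, 0.49 for MCM3, 0.69 for MCM4, 1.05 for MCM6 and 1.03 for MCM7. For GINS2 of the helicase activators it was 1.52. For the clamp PCNA it was 1.20, and for its loader 1.38 for RFC3, 1.34 for RFC4 and 0.59 for RFC5. Among polymerase subunits it was 0.80 for POLA1, 0.97 for POLE2 and -0.90 for POLA2. For FEN1 it was 0.66. Among nucleotide enzymes it was 0.89 for RRM1, 1.63 for RRM2, 1.09 for TYMS and 0.87 for TK1, and for the kinase CDK4 it was 1.57. MCM2, FEN1 and MCM3 lost the call in 7, 5 and 4 of the 8 fits that left out 1 array.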

How the results depend on the processing

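The Hs343T response had between 20 and 27 called members under every alternative run, against 25, and the difference between siRNA responses had 17 to 22, against 19. The Hs606T minus Hs343T comparison with siSCR had 30 to 35, against 33. These counts include members gained as well as lost, and with 1 array left out 21 or 22 of the 25 in Hs343T still passed. The count for invasive minus poorly invasive controls was 38 under the alternatives without a fold minimum and 37 with it. The smaller counts did not hold. In LM24175 the 1 call, RFC5, became 0 with arrays centred on their median, with the mean of all probe sets, with every probe set alone, with only the arrays compared, with the replicate block and with the 1.5-fold minimum, and 0 to 0 members passed with any 1 array left out. In Hs606T the 1 call, TK1, became 0 with arrays centred on their median and with only the arrays compared, 2 with the mean of all probe sets, and 0 to 0 with 1 array left out. Leaving out 1 array gave 0 to 4 calls in MDA-MB-231 and 0 to 3 for the difference between construct responses. For the empty vector comparison of LM24175 with MDA-MB-231 the 7 calls became 2 with only the arrays compared, 12 without both deviating arrays, 1 with the 1.5-fold minimum, and 3 to 9 with 1 array left out. The replicate block changed the count to 26 in Hs343T and to 5 for the empty vector comparison. Of 49 single values recomputed 709 times, 659 kept direction and side of the threshold, 49 lost the call and 1 reversed: RFC5 between invasive and poorly invasive controls, 2.22 with the mean of all probe sets. Causes were not tested. The number of arrays limits the precision, and values near 4.56 cannot be told from background.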
